A study of Rattus norvegicus with 16 samples.

Results

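The comparison of Tspo-knockout with wild-type rat liver on ordinary chow rests on 8 of the 16 libraries of the study, 4 labelled knockout on chow and 4 labelled wild type on chow, chosen by their titles. Every expressed gene of the deposited count table entered it. The study sequenced polyadenylated liver RNA of Sprague Dawley rats of both genotypes, fed chow or the MCD diet, which lacks methionine and choline. Diets began at 12 weeks of age and ran for 8 weeks, so all animals were 20 weeks old. Chow is the control diet of the study, and the other 8 libraries, 4 per genotype on MCD, served here to estimate the spread and to set the values on chow beside those on MCD. How the knockout was made, which part of Tspo it removes, and the animals' sex are not stated in the labels. The labels number the libraries of a group 1 to 4 without saying that each came from its own animal, so p-values measure the spread between libraries, which may be technical.

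Tspo encodes the translocator protein, a small protein of the outer mitochondrial membrane that binds cholesterol, porphyrins and the acyl-CoA-binding peptide encoded by Dbi. It is abundant in steroid-making glands and in macrophages and scarce in hepatocytes, which make up most of the liver. In the fed liver, hepatocytes turn citrate into fatty acids through ATP-citrate lyase (Acly), acetyl-CoA carboxylase (Acaca), fatty acid synthase (Fasn) and stearoyl-CoA desaturase (Scd1). Stellate cells, which store vitamin A, and portal fibroblasts make most of the collagen.

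The chow libraries held 8745756 to 12896848 counts in the wild type and 11330033 to 12521178 in the knockout. Of 17168 genes 11162 had enough counts over all 16 libraries to be tested. Libraries numbered 4 stood apart in both genotypes: on the first principal component of the 8 chow libraries, with 48.5% of the variance, they lay at 38.3 (wild type) and 79.4 (knockout), and the other 6 between -37.3 and -3.93. An index of long minus short messages, taken as the mean log2 level of 14 long-message genes less the mean of 25 short-message genes, was 0.423, 0.223, 0.196 and -0.842 in wild-type libraries 1 to 4 and -0.321, 0.008, -0.234 and -2.15 in the knockout. Such an index can move with RNA quality. The index was lowest in both libraries numbered 4, and among libraries 1 to 3 every knockout lay below every wild type. For this reason values are also given for libraries 1 to 3 alone, where genotype and index cannot be told apart. Knockout MCD library 1, which enters the fit with all libraries, also stood apart on the index, at -0.952 against 1.425 to 1.857 in the other knockout MCD libraries. Defining markers of hepatocytes were high in all 8 libraries, with a summed level of 178093 to 218748 CPM (counts relative to the TMM-scaled library total) in the wild type and 182939.7 to 246103 CPM in the knockout.

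**Figure D1:**
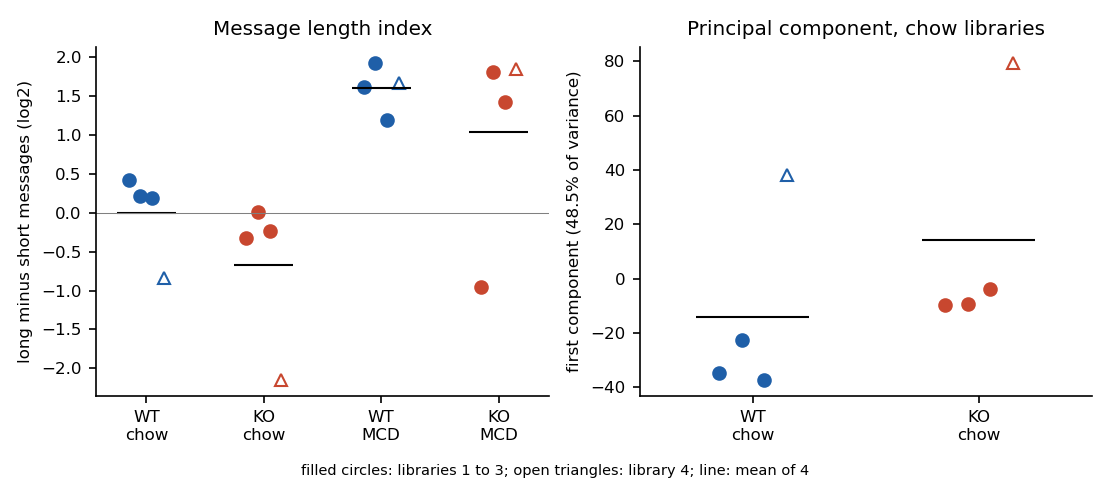
Index of long minus short messages (log2, left) in each library of the 4 groups and first principal component of the 8 chow libraries (right). Filled circles are libraries 1 to 3, open triangles library 4 and lines group means; both chow libraries numbered 4 sit apart from their groups, at -0.842 and -2.15 on the index.

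Tspo itself was examined first. Its level was 3.80, 4.37, 3.61 and 5.23 CPM in wild-type libraries 1 to 4, and 1.14, 0.656, 1.29 and 4.42 CPM in the knockout. The library labelled knockout number 4 thus lay within the wild-type range, while the other 3 lay below it. The counts were small, 25 to 55 in the wild type and 6 to 33 in the knockout. The knockout-over-wild-type log2 fold with every library was -1.23 ± 0.49 (SE; adjusted p = 0.461, edgeR's quasi-likelihood test with Benjamini-Hochberg adjustment, as for every adjusted p below), which did not pass the threshold of 0.05. In libraries 1 to 3 Tspo fell by 1.93 ± 0.32 on the log2 scale (adjusted p = 0.0253). Leaving out the library with the high Tspo widens this difference by construction.

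Mpped1, which encodes a metallophosphoesterase-domain protein best known from brain, had 9, 16, 13 and 14 counts in wild-type chow libraries 1 to 4 and 0 in all 4 knockout libraries. The library labelled knockout number 4, which carried Tspo at a wild-type level, was at 0 like the rest. Against a floor of 3 counts over the group, Mpped1 was at least 15.8-fold lower in the knockout. It was also at 0 in the 4 knockout libraries on MCD, where the wild type had 3, 0, 1 and 0 counts. Of all genes in the table Mpped1 was the 1 gene with at least 3 counts in every wild-type chow library and 0 counts in all 8 knockout libraries, and 0 genes showed the opposite pattern. It was picked after its values were seen. Its adjusted p over 16 libraries was 0.265 with edgeR and 0.00219 with DESeq2, and it had too few counts to be tested in libraries 1 to 3.

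Dbi, the ligand gene, stood at 906, 1028, 1039 and 1815 CPM in wild type against 1629.6, 1223, 1518 and 4812 CPM in the knockout. Both libraries numbered 4 were high, and the groups overlapped through wild-type library 4 only. The log2 fold was 0.94 ± 0.44 (adjusted p = 0.477) over all libraries and 0.55 ± 0.14 (adjusted p = 0.0701) in libraries 1 to 3, so Dbi passed neither test. Of the 21 tested genes of TSPO, its ligand and its partners, 0 were called over all libraries (3 higher and 1 lower at an unadjusted p under 0.05), and Tspo was the 1 called in libraries 1 to 3. Of all genes 3.56% were higher and 6.76% lower at that unadjusted p, and 1.63% were called in libraries 1 to 3.

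**Figure D2:**
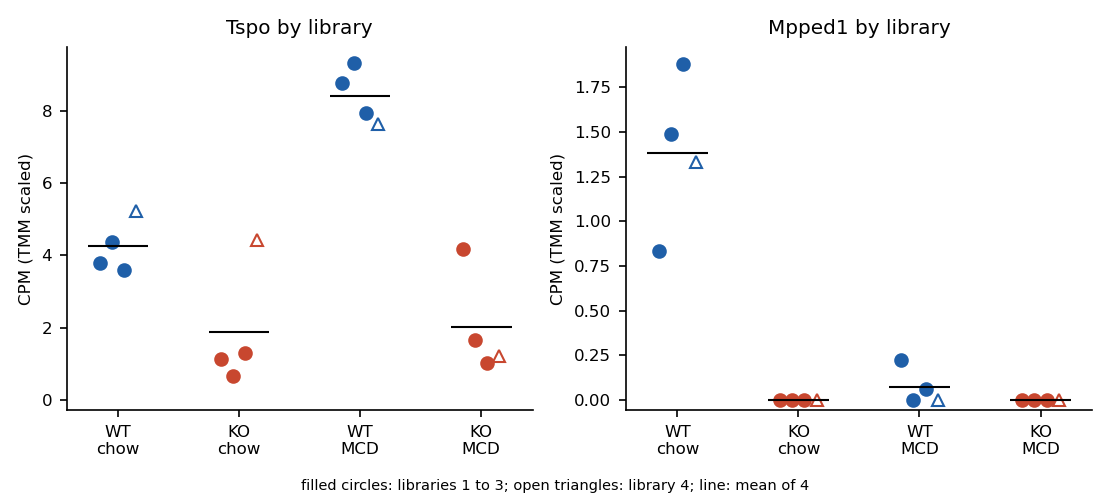
Level of Tspo (left) and Mpped1 (right) in CPM in each of the 16 libraries, by genotype and diet. Filled circles are libraries 1 to 3, open triangles library 4 and lines group means; knockout chow library 4 has 4.42 CPM of Tspo, and Mpped1 is at 0 in all 8 knockout libraries.

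Across the transcriptome 1 of 11162 genes passed the test with all libraries (percent called 0.00896), and it fell. This gene, LOC500124, which has no name in the RefSeq table used, stood at 9.27, 10.0, 13.4 and 8.37 CPM in wild type against 4.77, 3.83, 4.36 and 3.35 CPM in the knockout. The groups did not overlap. The log2 fold was -1.32 ± 0.18 (adjusted p = 0.019). The call was lost without any 1 of wild-type libraries 1, 2 and 3 or knockout libraries 2, 3 and 4 (adjusted p 0.0512 to 0.151), with the fold between -1.36 and -1.17. At an unadjusted p under 0.05 there were 397 higher (3.56%) and 755 lower genes (6.76%), and 196 (1.76%) were higher and 289 (2.59%) lower without overlap between the 4 and 4 libraries. DESeq2 called 23 genes, 10 up and 13 down.

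Libraries 1 to 3 gave 167 called genes of 10276 tested, 42 up (0.409%) and 125 down (1.22%). At an unadjusted p under 0.05, 1084 (10.5%) were higher and 1299 (12.6%) lower. This count moved with single libraries: it was 8 without knockout library 3, 20 without knockout library 2, 40 without knockout library 1, 29 without wild-type library 1 and 637 without wild-type library 2. With that message length index as a covariate 5 genes were called, 1 of them among the 167. Fitted together with the MCD libraries, the same 6 chow libraries gave 13 calls, and Acly, Acaca and Fasn were not among them (adjusted p = 0.102, 0.183 and 0.187). Without scaling factors the median gene moved from -0.02 to -0.22, and the split of calls from 42 up and 125 down to 19 up and 623 down, so directions below are relative to the bulk of genes. Apart from LOC500124 none of the genes named below passed edgeR's test with all libraries and no covariate, and "rose" or "fell" refers to libraries 1 to 3 unless another fit is named.

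Of the 47 gene lists read, fatty acid synthesis had the most calls upward. Among libraries 1 to 3, 6 of the 29 tested genes of fatty acid and triglyceride synthesis rose and 0 fell, among them Acly, Acaca, Fasn, Thrsp and Pnpla3. The median log2 fold of the 29 was 0.41, against -0.02 over all genes, and 14 were higher and 1 lower without overlap between 3 and 3 libraries, where 13.5% and 14.7% of all genes were. With edgeR over all libraries 0 of the 29 were called, 27 had a fold above 0 (5374 of 11162 over all genes), and the median was 0.49. At an unadjusted p under 0.05, 8 were higher and 0 lower (3.56% and 6.76% of all genes). The median was 0.40 with the message length index as a covariate and 0.19 without scaling factors. The summed level of 9 hepatocyte markers was 196597 to 218748 CPM in wild-type and 229155 to 246103 CPM in knockout libraries 1 to 3. None of the 9 passed the test, and over all libraries 4 had a fold above 0 and 5 below 0. The part of these markers in the result was not tested.

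Acly, which makes cytosolic acetyl-CoA from citrate, stood at 543, 303, 356 and 258 CPM in wild-type libraries 1 to 4 and at 884, 946, 1118 and 526 CPM in the knockout. Knockout library 4 lay below wild-type library 1, and the other 3 knockouts above every wild type. Acly rose by 1.29 ± 0.21 in libraries 1 to 3 (adjusted p = 0.0219), and its fold over all libraries was 1.25 ± 0.30 (adjusted p = 0.396; DESeq2 adjusted p = 0.031). Acaca, the enzyme that commits acetyl-CoA to fatty acids, had 34.1, 29.8, 28.3 and 25.4 CPM in wild type against 50.8, 65.2, 58.7 and 24.4 CPM in the knockout. Knockout library 4 was below every wild type and the other 3 above. Acaca rose by 0.91 ± 0.14 in libraries 1 to 3 (adjusted p = 0.0203), and with the index in the model of all libraries the fold was 1.04 (adjusted p = 0.00691). DESeq2 over all libraries did not call Acaca (DESeq2 adjusted p = 0.337). Fasn, which builds palmitate, had 519, 419.5, 337 and 283 CPM in wild type against 829.6, 985, 873 and 565 CPM in the knockout. All 4 knockout libraries were above all 4 wild-type ones. Fasn rose by 1.07 ± 0.17 in libraries 1 to 3 (adjusted p = 0.0217), beside 1.06 ± 0.34 over all libraries (adjusted p = 0.449). DESeq2 over all libraries did not call Fasn either (DESeq2 adjusted p = 0.173). With the index in the model of all libraries neither Acly (1.45, adjusted p = 0.0624) nor Fasn (1.36, adjusted p = 0.0828) was called.

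Thrsp, a small nuclear protein that promotes lipogenesis, had 658, 554, 850.3 and 827 CPM in wild type against 1882, 1608, 1643 and 932 CPM in the knockout. No overlap was seen between the groups, and Thrsp rose by 1.31 ± 0.17 in libraries 1 to 3 (adjusted p = 0.0117). Pnpla3, a lipid droplet protein with lipase activity, had 104, 30.3, 60.4 and 21.0 CPM in wild type against 505, 383, 563 and 50.1 CPM in the knockout. Knockout library 4 fell inside the wild-type range and the other 3 lay far above it. Pnpla3 rose by 2.89 ± 0.43 in libraries 1 to 3 (adjusted p = 0.0318; DESeq2 over all libraries, adjusted p = 0.0489). Its relative Pnpla5, also a triglyceride lipase and outside the list of 29, had 21.8, 14.5, 22.1 and 15.5 CPM in wild type against 99.9, 62.1, 93.1 and 24.5 CPM in the knockout. Wild-type and knockout libraries did not overlap, and Pnpla5 rose by 2.13 ± 0.22 in libraries 1 to 3 (adjusted p = 0.00589).

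Several further enzymes were high in the knockout without passing the test. Scd1, which desaturates stearate, had 2195, 3081, 1173 and 1608 CPM in wild type against 5211, 3853, 6071 and 7784 CPM in the knockout. Values of the genotypes did not overlap, and here library 4 was the highest knockout. The log2 fold was 1.51 ± 0.38 over all libraries (adjusted p = 0.396; DESeq2 adjusted p = 0.0384) and 1.22 ± 0.33 in libraries 1 to 3 (adjusted p = 0.0882). Malic enzyme Me1, a source of NADPH, had 52.9 to 99.8 CPM in wild type against 121 to 152 CPM in the knockout, also without overlap (0.96 ± 0.30, adjusted p = 0.449; 0.78 ± 0.20 in libraries 1 to 3, adjusted p = 0.0693). The elongase Elovl6 had log2 folds of 1.06 ± 0.46 over all libraries (adjusted p = 0.473) and 1.13 ± 0.32 in libraries 1 to 3 (adjusted p = 0.0904). Aacs, which activates acetoacetate for lipid synthesis, had 6.86, 6.69, 4.77 and 1.33 CPM in wild type against 9.88, 27.3, 20.0 and 3.08 CPM in the knockout (1.62 ± 0.34 in libraries 1 to 3, adjusted p = 0.0516).

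The transcription factors that drive these enzymes passed neither test. Srebf1, which encodes the sterol-regulated factor SREBP1, had 451, 335, 213 and 678 CPM in wild type against 448, 425, 449.8 and 1026 CPM in the knockout. The groups overlapped, with the highest value of each in library 4. Its log2 fold was 0.49 ± 0.36 over all libraries (adjusted p = 0.573) and 0.40 ± 0.23 in libraries 1 to 3 (adjusted p = 0.32). Mlxipl, which encodes the carbohydrate-responsive factor ChREBP, had 418, 193, 351 and 94.5 CPM in wild type against 192, 189, 146 and 93.2 CPM in the knockout, a fold of -0.77 ± 0.42 (adjusted p = 0.494; -0.87 ± 0.25 in libraries 1 to 3, adjusted p = 0.0909). Klhl25, the adaptor of a cullin ubiquitin ligase with ATP-citrate lyase among its known substrates, had 25.9, 24.2, 19.6 and 29.5 CPM in wild type against 43.4, 60.3, 54.9 and 39.6 CPM in the knockout. Its groups did not overlap, and Klhl25 rose by 1.17 ± 0.16 in libraries 1 to 3 (adjusted p = 0.0149).

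**Figure D3:**
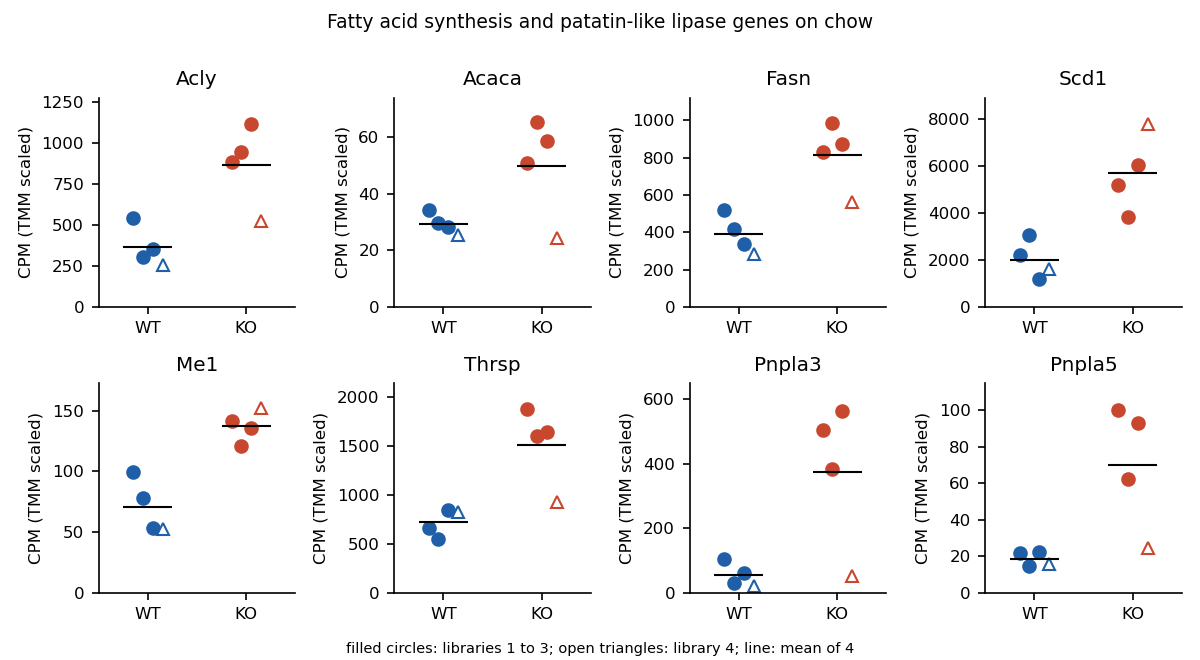
Level in CPM of 8 lipid synthesis and patatin-like lipase genes in the 8 chow libraries. Filled circles are libraries 1 to 3, open triangles library 4 and lines means of 4; for Acly, Acaca and Pnpla3 the knockout triangle lies within or below the wild-type range, and for Scd1 it is the highest point at 7784 CPM.

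Promoters are shown for Acly, Thrsp, Pnpla3 and Pnpla5, the lipid genes above that rose in libraries 1 to 3 and are in the RefSeq promoter table (assembly GRCr8). SREBP1 and its partner factor NF-Y are known to act through short motifs close to the start of many lipid synthesis genes. Each line is the 250 bases before the annotated start, 5′ to 3′ on the gene's strand. Capitals mark the CCAAT box (CCAAT, or ATTGG on the other strand) and the GC box (GGGCGG, or CCGCCC on the other strand), which did not overlap each other. Acly lies at chr10:85963632-85963881 on the minus strand, Pnpla3 at chr7:117173278-117173527 on the plus strand, Pnpla5 at chr7:117137037-117137286 on the minus strand and Thrsp at chr1:161138965-161139214 on the minus strand.
Acly: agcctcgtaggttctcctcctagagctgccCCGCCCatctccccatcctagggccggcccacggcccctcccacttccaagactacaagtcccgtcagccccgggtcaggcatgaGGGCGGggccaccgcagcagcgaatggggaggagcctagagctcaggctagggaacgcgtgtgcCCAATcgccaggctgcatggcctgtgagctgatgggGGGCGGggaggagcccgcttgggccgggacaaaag
Pnpla3: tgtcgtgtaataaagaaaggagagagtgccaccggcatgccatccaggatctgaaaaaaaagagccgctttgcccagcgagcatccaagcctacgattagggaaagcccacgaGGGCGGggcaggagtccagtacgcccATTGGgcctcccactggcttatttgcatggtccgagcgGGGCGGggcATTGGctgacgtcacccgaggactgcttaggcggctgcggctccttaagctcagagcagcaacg
Pnpla5: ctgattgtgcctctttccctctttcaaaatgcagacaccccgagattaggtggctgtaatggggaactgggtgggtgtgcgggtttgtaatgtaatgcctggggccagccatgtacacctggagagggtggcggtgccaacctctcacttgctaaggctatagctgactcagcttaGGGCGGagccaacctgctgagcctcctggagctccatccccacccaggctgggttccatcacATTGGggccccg
Thrsp: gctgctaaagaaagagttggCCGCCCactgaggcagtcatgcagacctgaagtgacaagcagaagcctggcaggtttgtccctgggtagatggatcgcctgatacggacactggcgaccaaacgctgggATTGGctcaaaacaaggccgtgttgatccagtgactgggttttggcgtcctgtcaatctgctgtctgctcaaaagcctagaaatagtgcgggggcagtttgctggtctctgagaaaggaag

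All 4 held at least 1 CCAAT box and 1 GC box in this window, with the CCAAT box 66 bases from the start in Acly, 116 in Thrsp and 7 in Pnpla5, and 2 copies in Pnpla3. Among the promoters of 8393 tested genes 35.8% held a CCAAT box and 58.0% a GC box. Of the 22 matched genes of fatty acid and triglyceride synthesis 12 held each. The E-box CACGTG, searched on both strands, was in 1 of the 22 and in 8.14% of tested genes, and the sterol regulatory element TCACNCCAC in 0 of the 22 and in 1% of tested genes. The letters of a motif describe the window and show no binding. Fasn and Acaca were not in the table.

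Genes of fat breakdown and storage gave few calls. Of the 34 tested genes of fatty acid oxidation and PPAR-alpha targets 0 were called over all libraries, with a median of 0.17. At an unadjusted p under 0.05, 3 were higher and 1 lower (3.56% and 6.76% of all genes). In libraries 1 to 3, 0 of 31 were called, 9 were higher and 0 lower at an unadjusted p under 0.05 (10.5% and 12.6% of all genes), and the median was 0.21. Cpt2, which frees acyl-CoA inside mitochondria, had 98.3, 106, 64.0 and 91.8 CPM in wild type against 136, 111, 127 and 114 CPM in the knockout. Both groups were apart, and the fold of 0.44 ± 0.16 did not pass (adjusted p = 0.459; 0.47 ± 0.19 in libraries 1 to 3, adjusted p = 0.167). Angptl4, a secreted inhibitor of lipoprotein lipase, had 54.7 to 169 CPM in wild type against 135 to 271 CPM in the knockout, which overlapped (1.2 ± 0.41, adjusted p = 0.449; 0.92 ± 0.36 in libraries 1 to 3, adjusted p = 0.177). Pnpla2, which encodes the main triglyceride lipase of lipid droplets (ATGL), had lower values in the knockout, unlike Pnpla3 and Pnpla5. It stood at 49.8, 37.6, 34.2 and 40.6 CPM in wild type against 27.7, 30.5, 24.7 and 22.8 CPM in the knockout, without overlap. Its fold of -0.62 ± 0.15 missed the threshold (adjusted p = 0.396; DESeq2 adjusted p = 0.0489), and it was -0.56 ± 0.17 in libraries 1 to 3 (adjusted p = 0.0899). Among 27 genes of cholesterol synthesis and uptake 0 were called and 0 had an unadjusted p under 0.05 over all libraries. Their median was 0.16, with 21 folds above 0 (5374 of 11162 over all genes). Among libraries 1 to 3, 5 were higher and 0 lower at an unadjusted p under 0.05 (10.5% and 12.6% of all genes). Cyp51, a demethylase of the sterol pathway, had 256, 318, 234 and 311 CPM in wild type against 336, 462, 448 and 328 CPM in the knockout, without overlap (0.49 ± 0.33, adjusted p = 0.544; 0.62 ± 0.17 in libraries 1 to 3, adjusted p = 0.0786).

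Pnpla3 and Pnpla5 are neighbours of Tspo, so the 20 protein-coding genes on each side of it in the order of GRCr8 were read together, a choice made after these values were seen. Positions count genes from Tspo at 0. Of the 40 neighbours 34 were in the table and 28 were tested over all libraries. At an unadjusted p under 0.05, 6 of the 28 were higher and 2 lower (3.56% and 6.76% of all genes). In libraries 1 to 3, 27 were tested, 5 were called up and 0 down, that is 18.5% beside 1.63% of all genes. They were Cyp2d5 (position -17), Serhl2 (-10), Sult4a1 (5), Pnpla5 (6) and Pnpla3 (7). Pnpla5 and Pnpla3 had prompted the choice of these neighbours, so the share called is raised by construction. On MCD 0 of the 28 had an unadjusted p under 0.05, where 0.726% of all genes did. Mpped1 lies at position 3. Neither direct neighbour, Mcat at -1 or Ttll12 at 1, had an unadjusted p under 0.05 in either set of libraries.

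Sult4a1, a sulfotransferase relative expressed mainly in brain, had 1.58, 0.651, 0 and 0.666 CPM in wild type against 16.4, 9.73, 10.4 and 1.07 CPM in the knockout. Knockout library 4 lay in the wild-type range and the other 3 above it. Sult4a1 rose by 3.85 ± 0.53 in libraries 1 to 3 (adjusted p = 0.0203). Serhl2, a serine hydrolase-like protein, had 15.7, 18.7, 17.6 and 37.2 CPM in wild type against 27.3, 27.2, 27.7 and 102 CPM in the knockout. Library 4 was the highest of each genotype. Serhl2 rose by 0.66 ± 0.13 in libraries 1 to 3 (adjusted p = 0.0416). Cyp2d5, a cytochrome P450 of drug oxidation, had 287, 301, 343 and 557 CPM in wild type against 586, 610.3, 553 and 566 CPM in the knockout. It rose by 0.91 ± 0.13 in libraries 1 to 3 (adjusted p = 0.0171), and its value is uncertain because Cyp2d genes share reads. The other tested Cyp2d genes, at positions -18 to -14, were not called.

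**Figure D4:**
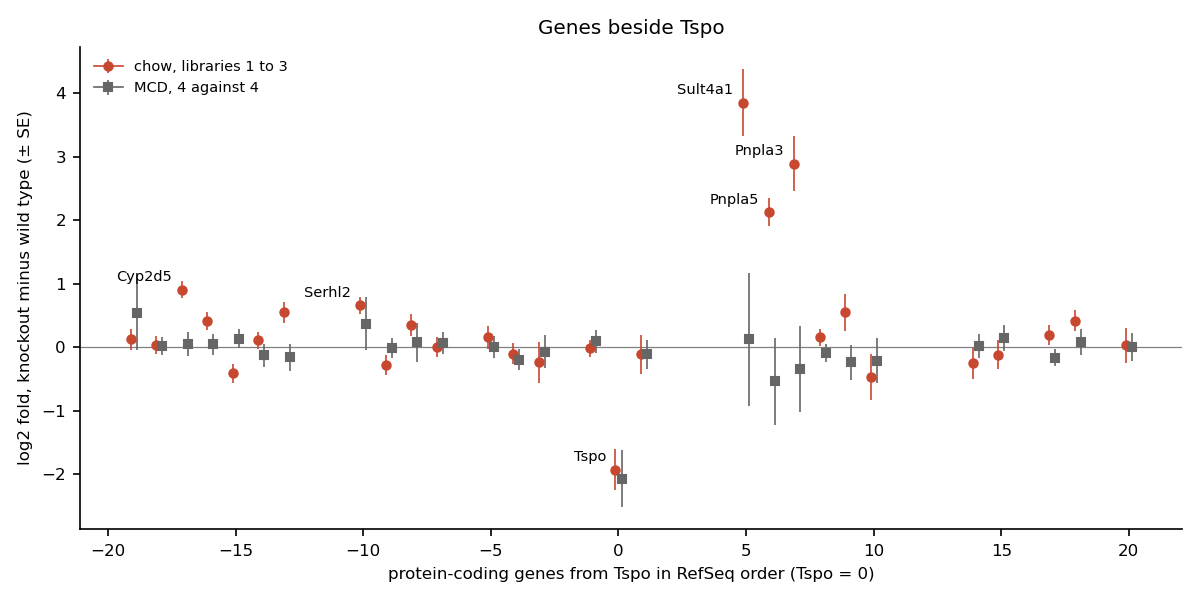
Log2 fold ± SE of knockout over wild type for tested genes within 20 protein-coding genes of Tspo, on chow in libraries 1 to 3 (circles) and on MCD with 4 against 4 libraries (squares), by position in the GRCr8 gene order. Sult4a1, Pnpla5 and Pnpla3 at positions 5 to 7 reach 3.85, 2.13 and 2.89 on chow and 0.12, -0.54 and -0.35 on MCD.

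Enzymes of steroid and drug metabolism were mixed. Of 35 tested cytochromes P450 0 were called over all libraries (4 higher and 2 lower at an unadjusted p under 0.05, median -0.02), and in libraries 1 to 3, 3 of 33 rose (Cyp2a1, Cyp2d5 and Cyp2r1) and Cyp4f4 fell. Of 36 genes of conjugation 0 were called over all libraries (3 higher, 1 lower at an unadjusted p under 0.05), and in libraries 1 to 3 Sult2a1 rose and Gstm1 fell. Of all genes 3.56% were higher and 6.76% lower at that unadjusted p over all libraries. In libraries 1 to 3, 0.409% of all genes rose and 1.22% fell. Akr1c2, an aldo-keto reductase of steroids, had 24.5, 23.0, 21.7 and 658 CPM in wild type against 174, 478, 419 and 744 CPM in the knockout. Wild-type library 4 reached the knockout range and the other 3 stayed far below it. Akr1c2 rose by 3.95 ± 0.37 in libraries 1 to 3 (adjusted p = 0.0102), while over all libraries the fold was 1.32 ± 0.91 (adjusted p = 0.552). Hsd17b6, a hydroxysteroid and retinol dehydrogenase, had 238, 149.5, 182 and 1064 CPM in wild type against 466, 477, 468 and 909 CPM in the knockout, again with both libraries 4 the highest. Hsd17b6 rose by 1.30 ± 0.17 in libraries 1 to 3 (adjusted p = 0.0117) and had a fold of 0.51 ± 0.49 over all libraries (adjusted p = 0.654).

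Sult2a1, which sulfates steroids and bile acids, had 953, 935, 840.2 and 2961 CPM in wild type against 1405, 1534, 1728 and 3911 CPM in the knockout. Library 4 was the highest of each genotype. Sult2a1 rose by 0.77 ± 0.13 in libraries 1 to 3 (adjusted p = 0.0278). Cyp2a1, a steroid hydroxylase, had 162, 214, 147 and 521 CPM in wild type against 309, 464, 417 and 844 CPM in the knockout, and rose by 1.18 ± 0.19 in libraries 1 to 3 (adjusted p = 0.0219). Cyp2c12, a P450 that hydroxylates steroid sulfates and is best known from the female rat, had 372, 459, 372 and 478 CPM in wild type against 504, 1223, 973 and 1065 CPM in the knockout. Its groups did not overlap, but it was not called (1.16 ± 0.40, adjusted p = 0.455; adjusted p = 0.069 in libraries 1 to 3). Akr1b7, a reductase of lipid aldehydes, had 10.2, 6.60, 1.59 and 0.0951 CPM in wild type against 23.4, 115, 42.7 and 0.536 CPM in the knockout. Library 4 was the lowest of each genotype. Akr1b7 had a fold of 3.26 ± 0.95 over all libraries (adjusted p = 0.435) and of 3.22 ± 0.87 in libraries 1 to 3 (adjusted p = 0.12). It rose with the index in the model of all libraries, at 4.81 (adjusted p = 0.00548). DESeq2 over all libraries did not call Akr1b7 (DESeq2 adjusted p = 0.363). On MCD, whose libraries enter these fits, it stood at only 0 to 0.0942 CPM in wild type and 0 to 0.139 CPM in the knockout.

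On the lower side, Cyp4f4, which hydroxylates fatty acids and leukotrienes, had 224, 208, 223 and 159 CPM in wild type against 153, 139, 122 and 152 CPM in the knockout. The groups did not overlap, and Cyp4f4 fell by 0.67 ± 0.13 in libraries 1 to 3 (adjusted p = 0.0388). Gstm1, a glutathione transferase, had 1791, 1836, 1662 and 872 CPM in wild type against 1247, 1137, 980.2 and 786 CPM in the knockout, and fell by 0.66 ± 0.14 in libraries 1 to 3 (adjusted p = 0.0445). Genes of the Akr1c, Sult2a, Cyp2a, Cyp2c and Gstm families have close copies, so their single values are uncertain. Abcc6, an efflux transporter of the hepatocyte, had 601, 383, 589 and 247 CPM in wild type against 302, 289, 237 and 236 CPM in the knockout, and fell by 0.93 ± 0.19 in libraries 1 to 3 (adjusted p = 0.0406). Aox1, the aldehyde oxidase, had 789, 712, 436 and 334 CPM in wild type against 123, 320.1, 263 and 266 CPM in the knockout, without overlap. Its fold of -1.23 ± 0.30 did not pass (adjusted p = 0.396; DESeq2 adjusted p = 0.0489), nor did -1.46 ± 0.37 in libraries 1 to 3 (adjusted p = 0.0804).

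Collagen and mesenchymal genes were called mostly downward in libraries 1 to 3. Of 33 tested genes of matrix and fibrosis 0 were called over all libraries (0 higher and 6 lower at an unadjusted p under 0.05), with a median of -0.45. Among libraries 1 to 3, 5 of 30 fell and 0 rose, where 1.22% of all genes fell and 0.409% rose, and the median was -0.51. Without overlap 16 were lower and 1 higher, beside 14.7% and 13.5% of all genes. Of 23 genes of stellate and contractile cells 0 were called over all libraries (1 higher and 7 lower at an unadjusted p under 0.05, median -0.56), and in libraries 1 to 3, 4 of 20 fell and 1 rose. Over all libraries 3.56% of all genes were higher and 6.76% lower at that unadjusted p. With the index in the model the medians were -0.32 and -0.21. Fewer cells of a type and less RNA per cell cannot be told apart in bulk tissue.

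Col1a1, a chain of type I collagen, had 46.0, 40.6, 43.6 and 5.23 CPM in wild type against 11.1, 10.8, 17.2 and 3.88 CPM in the knockout. Wild-type library 4 lay as low as the knockouts. Col1a1 fell by 1.73 ± 0.18 in libraries 1 to 3 (adjusted p = 0.00589), while over all libraries the fold was -1.64 ± 0.71 (adjusted p = 0.473). Its partner chain Col1a2 had 62.2, 59.9, 57.8 and 19.9 CPM in wild type against 26.6, 30.3, 31.2 and 10.8 CPM in the knockout, the same arrangement. Col1a2 fell by 1.04 ± 0.12 in libraries 1 to 3 (adjusted p = 0.011). Col6a2 of type VI collagen fell by 0.89 ± 0.18 (adjusted p = 0.0423) and Loxl1, which crosslinks elastin, by 1.55 ± 0.33 (adjusted p = 0.0481), both in libraries 1 to 3. Loxl1 was scarce, at 1.24 to 3.18 CPM in wild type against 0.134 to 1.14 CPM in the knockout, and did not overlap. Pdgfrb, the growth factor receptor of stellate cells and pericytes, had 24.9, 21.2, 22.1 and 24.9 CPM in wild type against 13.7, 13.2, 15.2 and 17.5 CPM in the knockout. Its groups did not overlap with library 4 included, and Pdgfrb fell by 0.70 ± 0.14 in libraries 1 to 3 (adjusted p = 0.0407).

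Col27a1, a fibrillar collagen gene of cartilage that stood outside the list, had 29.0, 20.5, 50.7 and 13.4 CPM in wild type against 7.84, 5.80, 4.95 and 9.64 CPM in the knockout. No overlap was seen between the groups. Its fold was -2.01 ± 0.35 over all libraries (adjusted p = 0.171; DESeq2 adjusted p = 0.000247), and Col27a1 fell by 2.42 ± 0.34 in libraries 1 to 3 (adjusted p = 0.0203). Acta2, the smooth muscle actin of contractile cells, had 6.95, 3.81, 7.08 and 5.71 CPM in wild type against 3.18, 0.656, 1.68 and 1.21 CPM in the knockout. It did not overlap between groups but passed neither test (-1.79 ± 0.48, adjusted p = 0.396; -1.69 ± 0.45, adjusted p = 0.0756). Tagln, a partner of smooth muscle actin, had 8.27 to 17.7 CPM in wild type against 3.17 to 10.9 CPM in the knockout and overlapped (-1.22 ± 0.35, adjusted p = 0.413; adjusted p = 0.176 in libraries 1 to 3). Eln (elastin) fell by 1.78 ± 0.31, the intermediate filament gene Vim by 0.84 ± 0.17 and the actin crosslinker Flna by 0.82 ± 0.15 in libraries 1 to 3 (adjusted p = 0.0278, 0.0403 and 0.0324). Gas6, a ligand of TAM receptors, went the other way. It had 67.0, 79.1, 65.6 and 106 CPM in wild type against 135, 111, 117 and 119.7 CPM in the knockout, did not overlap, and rose by 0.77 ± 0.14 in libraries 1 to 3 (adjusted p = 0.0293).

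Lrat, which esterifies retinol and marks quiescent stellate cells, gave overlapping values, at 20.5, 33.3, 33.4 and 32.4 CPM in wild type against 34.1, 34.3, 32.2 and 33.9 CPM in the knockout. Its fold of 0.17 ± 0.26 (adjusted p = 0.782; 0.21 ± 0.18 in libraries 1 to 3, adjusted p = 0.528) turned to -0.05 without scaling factors. The summed level of 9 stellate cell markers in libraries 1 to 3 was 235 to 259.6 CPM in wild type against 189.7 to 200.3 CPM in the knockout, and 184 and 159 CPM in libraries 4. Of these 9, 5 had a fold above 0 and 4 below 0 over all libraries. Ecm1, 1 of the 9, averaged 157 CPM in wild-type and 111 CPM in knockout libraries 1 to 3. The sum of 13 smooth muscle and portal fibroblast markers was 126 to 149 and 134 to 183 CPM, and 154 and 156 CPM in libraries 4. Of the 10 tested over all libraries 2 had a fold above 0 and 8 below 0. Gas6, 1 of these markers, averaged 70.6 CPM in wild-type and 121 CPM in knockout libraries 1 to 3. The sum of 8 endothelial markers was 222 to 262 and 161 to 217 CPM, and 238 and 241 CPM in libraries 4. Of these 8, 1 had a fold above 0 and 7 below 0 over all libraries. No defining marker of these 3 cell types was at 0 in all chow libraries. Of the 14 long messages of the index Ahnak and Plec fell in libraries 1 to 3, by 1.45 ± 0.20 (adjusted p = 0.0149) and 0.79 ± 0.16 (adjusted p = 0.0406), and the median of the 14 was -0.27. The part of message length and of these cells in the collagen values was not tested.

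Of 20 listed endoplasmic reticulum chaperones and stress genes 0 were called with edgeR, with 5 higher and 0 lower at an unadjusted p under 0.05 over all libraries and 8 and 1 in libraries 1 to 3 (3.56% and 6.76%, then 10.5% and 12.6%, of all genes). Their medians were 0.31 and 0.25. Hspa5 (BiP), the main chaperone of that compartment, had 989, 1049, 915 and 572 CPM in wild type against 1253, 1383, 1527 and 948 CPM in the knockout. Knockout library 4 overlapped the wild type (0.54 ± 0.20, adjusted p = 0.459; 0.49 ± 0.13 in libraries 1 to 3, adjusted p = 0.0765). P4hb, a protein disulfide isomerase, had 945 to 1304 CPM in wild type against 1327 to 1752 CPM in the knockout, without overlap (0.38 ± 0.17, adjusted p = 0.473; adjusted p = 0.171 in libraries 1 to 3). Of 15 listed heat shock genes 0 were called with edgeR (3 higher, 1 lower at an unadjusted p under 0.05, median 0.34). Dnajb1, a cochaperone of HSP70, had 37.1, 48.8, 37.1 and 46.7 CPM in wild type against 54.4, 75.0, 84.9 and 78.1 CPM in the knockout, without overlap (0.78 ± 0.20, adjusted p = 0.396; 0.79 ± 0.18 in libraries 1 to 3, adjusted p = 0.0578). Hsp90aa1, a cytosolic chaperone, had 399.6, 481, 691 and 743 CPM in wild type against 763, 878, 1010.4 and 855 CPM in the knockout, also without overlap (0.60 ± 0.28, adjusted p = 0.477; 0.75 ± 0.20 in libraries 1 to 3, adjusted p = 0.075).

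Among other single genes, Psmb8, a subunit of the immunoproteasome, had 75.1, 72.1, 60.1 and 84.1 CPM in wild type against 128, 112, 134 and 127 CPM in the knockout. Wild-type and knockout libraries did not overlap, and Psmb8 rose by 0.84 ± 0.14 in libraries 1 to 3 (adjusted p = 0.0219). The related subunit Psmb9 had 40.5 to 46.0 CPM in wild type against 48.9 to 71.8 CPM in the knockout (0.48 ± 0.19, adjusted p = 0.459; adjusted p = 0.146 in libraries 1 to 3). They were 2 of 4 genes higher without overlap among 36 interferon response genes, beside 1.76% of all genes. The median of the 36 was 0.04. Tmem55a, a phosphoinositide phosphatase of late endosomes, had 4.54, 5.76, 5.78 and 3.90 CPM in wild type against 19.4, 11.0, 19.9 and 7.90 CPM in the knockout. It did not overlap, and rose by 1.65 ± 0.24 in libraries 1 to 3 (adjusted p = 0.0187). DESeq2 called Tmem55a and Klhl25 over all libraries, both at an adjusted p of 0.00219. Aldh3a2, the fatty aldehyde dehydrogenase, had 353 to 491 CPM in wild type against 579.8 to 694 CPM in the knockout (0.56 ± 0.14, adjusted p = 0.396; DESeq2 adjusted p = 0.00219; 0.60 ± 0.14 in libraries 1 to 3, adjusted p = 0.0585). Exoc6, a subunit of the exocyst, and the serine protease Prss32 were also higher without overlap, with folds of 0.65 ± 0.17 and 1.47 ± 0.34 (adjusted p = 0.396 for both, and 0.069 and 0.0585 in libraries 1 to 3; DESeq2 called Prss32 over all libraries, adjusted p = 0.0334).

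Phgdh, the first enzyme of serine synthesis, had 6.86, 3.90, 5.63 and 0.381 CPM in wild type against 1.14, 1.53, 0.693 and 0.134 CPM in the knockout. Library 4 was the lowest of each genotype. Phgdh fell by 2.29 ± 0.35 in libraries 1 to 3 (adjusted p = 0.0203). Slc38a2, a transporter of small neutral amino acids, fell by 0.80 ± 0.14 (adjusted p = 0.0299). Of 18 glucocorticoid targets and metallothioneins 0 were called over all libraries. At an unadjusted p under 0.05, 1 was higher and 2 lower (3.56% and 6.76% of all genes). In libraries 1 to 3 Sgk1 was the 1 called (1.63% of all genes were called), with a list median of -0.54. Sgk1, a kinase induced by serum and glucocorticoids, had 38.5, 43.1, 29.8 and 29.5 CPM in wild type against 14.8, 6.89, 11.8 and 21.7 CPM in the knockout. It did not overlap and fell by 1.75 ± 0.25 in libraries 1 to 3 (adjusted p = 0.0184). Npas2, a clock transcription factor, had 23.2, 17.7, 24.6 and 26.2 CPM in wild type against 7.61, 6.89, 11.5 and 21.7 CPM in the knockout. It fell by 1.33 ± 0.21 in libraries 1 to 3 (adjusted p = 0.0219), the 1 call among 16 clock genes (1.63% of all genes were called).

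Hormone signalling genes gave single calls. Socs2, a growth hormone-induced inhibitor of cytokine signalling, had 41.0, 54.1, 53.7 and 5.71 CPM in wild type against 18.3, 22.7, 26.2 and 4.69 CPM in the knockout. Both libraries 4 were low. Socs2 fell by 1.15 ± 0.17 in libraries 1 to 3 (adjusted p = 0.0187). Igfals, the carrier subunit of IGF1, had 325 to 522 CPM in wild type against 588 to 626 CPM in the knockout, without overlap (0.55 ± 0.20, adjusted p = 0.459; 0.46 ± 0.15 in libraries 1 to 3, adjusted p = 0.112). Thra, a thyroid hormone receptor, had 19.3, 16.1, 17.8 and 13.4 CPM in wild type against 10.1, 9.51, 10.1 and 17.7 CPM in the knockout, and fell by 0.84 ± 0.15 in libraries 1 to 3 (adjusted p = 0.0293). Cdkn1a, the p21 inhibitor of the cell cycle, depended on library 4. It had 19.1, 20.6, 23.3 and 13.3 CPM in wild type against 7.95, 10.5, 11.5 and 62.3 CPM in the knockout. Cdkn1a fell by 1.07 ± 0.17 in libraries 1 to 3 (adjusted p = 0.0219), and its fold over all libraries was 0.27 ± 0.49 (adjusted p = 0.825). Mki67, a marker of dividing cells, had 10.5, 9.20, 8.52 and 3.23 CPM in wild type against 4.77, 4.37, 5.55 and 1.34 CPM in the knockout. It fell by 0.95 ± 0.19 in libraries 1 to 3 (adjusted p = 0.0406), the 1 call among 27 cell cycle genes. Of all genes 1.63% were called in libraries 1 to 3.

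Further genes fell in libraries 1 to 3. Pcgf2, a Polycomb subunit, had 7.70, 7.34, 7.08 and 3.90 CPM in wild type against 3.18, 2.62, 3.76 and 1.87 CPM in the knockout. Values of the genotypes did not overlap, and Pcgf2 fell by 1.21 ± 0.21 in libraries 1 to 3 (adjusted p = 0.0288; DESeq2 over all libraries, adjusted p = 0.0178). Zfp295, a zinc finger protein, fell by 1.07 ± 0.17 (adjusted p = 0.0203), and over all 4 libraries its range was 7.99 to 15.7 CPM in wild type and 4.82 to 7.82 CPM in the knockout. Top3b, a topoisomerase of DNA and RNA, had 42.1, 38.1, 40.9 and 14.9 CPM in wild type against 16.9, 17.5, 14.8 and 14.6 CPM in the knockout. Wild-type library 4 lay among the knockouts, and Top3b fell by 1.31 ± 0.13 in libraries 1 to 3 (adjusted p = 0.00589). Jakmip2, a coiled-coil protein, had 17.2, 16.6, 16.0 and 8.85 CPM in wild type against 5.22, 6.34, 5.94 and 10.3 CPM in the knockout, and fell by 1.51 ± 0.16 in libraries 1 to 3 (adjusted p = 0.00589). Srrm2, a splicing factor with a long message, had 657, 423, 685 and 163 CPM in wild type against 279, 284, 203 and 190.1 CPM in the knockout, and fell by 1.2 ± 0.21 in libraries 1 to 3 (adjusted p = 0.0273). With the index in the model of all libraries its fold was -0.48 (adjusted p = 0.76). The membrane skeleton gene Epb41l1, the epsin gene Epn2, Lzts2, Plcxd2 and Zfp467 were lower without overlap and not called by edgeR, with folds from -1.08 (Plcxd2) to -0.57 (Epn2) and adjusted p-values of 0.0504 to 0.0877 in libraries 1 to 3. DESeq2 called Epb41l1 and Plcxd2 over all libraries (adjusted p = 0.0164 and 0.0489).

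**Figure D5:**
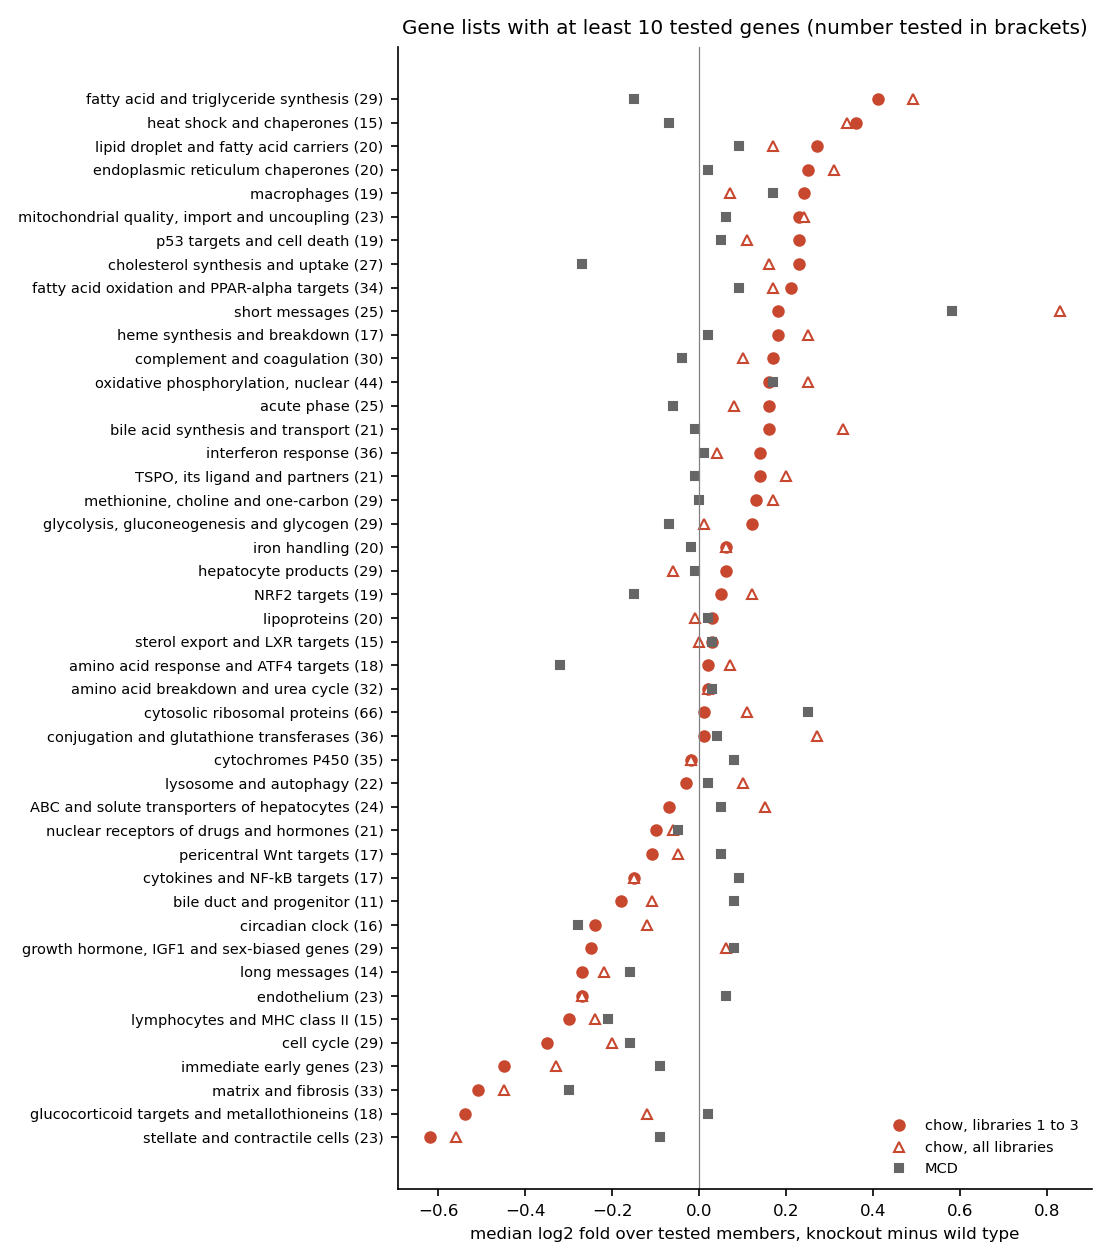
Median log2 fold of knockout over wild type over the tested members of each gene list with at least 10 tested genes, on chow in libraries 1 to 3 (circles), on chow in all libraries (triangles) and on MCD (squares). Fatty acid and triglyceride synthesis is at 0.41, 0.49 and -0.15, and matrix and fibrosis at -0.51, -0.45 and -0.30.

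The same genotypes were compared on MCD in other libraries, which gave 0 called genes with edgeR (81 at an unadjusted p under 0.05, 0.726%). The difference of the knockout effects between diets was tested directly, and 0 genes passed with edgeR (330 at an unadjusted p under 0.05, 2.96%), while DESeq2 called 1. Without both chow libraries numbered 4 and knockout MCD library 1, edgeR called 20, of which 2 were positive and 18 negative. The sign of the fold was the same on both diets for 63.0% of all genes and for 112 of 166 (67.5%) of those called in libraries 1 to 3. On MCD Pnpla3 averaged 7.91 CPM in wild type against 6.17 CPM in the knockout, Acly 396 and 304 CPM, and Fasn 351 and 244 CPM. The fold on chow minus that on MCD was 3.15 for Pnpla3, 1.63 for Acly and 1.59 for Fasn, each with an adjusted p of 1, so a difference between diets was not shown for any of them. The median of the 29 fatty acid and triglyceride synthesis genes was -0.15 on MCD, and that of the matrix genes -0.30.

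Genes without overlap between genotypes numbered 485 on chow (4.35%) and 89 on MCD (0.797%). On both diets Aox1 and Mrm1 were lower without overlap, and 0 genes were apart in opposite directions. Aox1 averaged 215 CPM in wild type against 119 CPM in the knockout on MCD (-0.85, unadjusted p = 0.0119). Mrm1, a methyltransferase of mitochondrial ribosomal RNA, had 5.29, 4.65, 5.78 and 4.47 CPM in wild type against 2.73, 4.16, 3.17 and 3.88 CPM in the knockout on chow (-0.53 ± 0.20, adjusted p = 0.459; -0.64 ± 0.24 in libraries 1 to 3, adjusted p = 0.15). On MCD it averaged 4.89 and 3.54 CPM. Tspo averaged 8.42 CPM in wild type against 2.02 CPM in the knockout on MCD, a fold of -2.07. Knockout MCD library 1 had 4.17 CPM and the other 3 had 1.66, 1.02 and 1.21 CPM. LOC500124 averaged 7.61 and 7.51 CPM on MCD.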

How the data were processed

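Per the labels' protocols, mRNA was enriched from liver RNA and made into stranded libraries. The authors deposited expected counts per gene, made with RSEM 1.2.15 and Bowtie2 2.1.0 on rn6, per the submitters' processing notes. Expected counts split reads among close copies, and 88.9% of values were whole. The authors also deposited a scaled signal table, which was not used. Library depth is given in the report, and libraries within a chow group differed by a chi-square of 15.3 to 384 per gene. Rounded counts were fitted in edgeR 4.0.16 (R 4.3.3) after filterByExpr and TMM scaling, with 1 term per group over all 16 libraries (12 residual degrees of freedom), and tested by the robust quasi-likelihood method with Benjamini-Hochberg adjustment. Libraries 1 to 3 were fitted alone (4 residual degrees of freedom). The SE is the size of the log2 fold divided by the root of F. DESeq2 1.42.0 and limma 3.58.1 (voom) were alternatives, beside other scalings, filters, a replicate block, the message length index and left-out libraries. The scripts were tested on simulated data.

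Single genes were picked by a rule: Tspo, called genes, the 10 with the smallest p in each direction among genes of at least 5 CPM whose groups did not overlap, and 2 members per list. Not every list member so picked is described above: Insig1, Tm7sf2, Dnajb9 and Hspb8, for example, are left out. Cyp51, P4hb and Hsp90aa1, whose groups did not overlap, are described though the rule did not pick them. Genes called only in libraries 1 to 3, the neighbours of Tspo and other genes were chosen after their values were seen. The members, the 47 lists and the rules were chosen with earlier results of these data known. Promoters and gene order come from RefSeq (GRCr8), which is not the build of the counts. The values of 1 gene are not reported here.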

Additional observations from a re-analysis of the deposited data

Results flagged for a closer look

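In 164 groups of 4 libraries (82 values in each genotype on chow) 20 had a highest or lowest library whose gap to the next, over the range of the group, was above the 95% limit of Dixon's test. Chance alone would give about 1 in 20 groups if genes were chosen without regard to their values. Several of these genes were named because they were called when chow libraries were fitted alone without those numbered 4. That choice favours a small spread among the other libraries and so a large gap to library 4. The rate of 1 in 20 therefore does not apply to this list. Of the 20 groups above the limit, 9 were the library labelled knockout number 4 and 10 were wild-type library 4, and several genes stood out in both.

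Dbi was high in both, at 1815 CPM in wild type and 4812 CPM in knockout. Serhl2 was high in both, at 37.2 and 102 CPM, as were Hsd17b6, at 1064 and 909 CPM, and Sult2a1, at 2961 and 3911 CPM. In wild-type library 4 alone Akr1c2 was high at 658 CPM, while Col1a1 (5.23 CPM), Col1a2 (19.9 CPM), Pcgf2 (3.90 CPM), Jakmip2 (8.85 CPM) and Top3b (14.9 CPM) were low. In the library labelled knockout number 4 Tspo was high at 4.42 CPM, Srebf1 at 1026 CPM, Cdkn1a at 62.3 CPM and Thra at 17.7 CPM, and the long minus short index was low at -2.15. Lrat was low in wild-type library 1, at 20.5 CPM.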

How the results depend on the processing

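With all libraries 1 gene was called. The count was 2 without scaling factors and with limma voom, 23 with DESeq2, and 0 in the chow libraries alone and against an absolute log2 fold of 0.5. It was 4 with the message length index in the model and 20 with the index in the chow libraries alone, 13 without both chow libraries numbered 4, 516 without these and knockout MCD library 1, and 0 to 17 without 1 library (17 without wild-type library 4). Of the genes picked by the rule 1 was called with all libraries. This count was 2 without scaling factors, 0 in the chow libraries alone, 26 in libraries 1 to 3 and 6 without both libraries 4. It was 41 without these and knockout MCD library 1, 2 and 5 with the index (all and chow libraries), 16 with DESeq2, and 0 to 6 without 1 library.

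The 167 calls of libraries 1 to 3 became 642 without scaling factors (140 shared), 349 without a filter, 601 with DESeq2 (159 shared), 5 with the index, 13 (12 shared) with the MCD libraries added, 516 (139 shared) with these except knockout MCD library 1, and 8 to 637 without 1 library (8, 20 and 40 without knockout libraries 3, 2 and 1; 29 and 637 without wild-type libraries 1 and 2). The alternatives within libraries 1 to 3 were chosen after seeing the data. The difference between diets gave 1 gene with DESeq2 and 20 without both chow libraries 4 and knockout MCD library 1.

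Library numbers were shared between genotypes. Same-numbered chow libraries deviated from their group means with correlations of 0.23, 0.18, -0.07 and 0.51. Numbers 1 to 3 thus did not pair the libraries, while both libraries numbered 4 deviated alike. Of the 4 knockout libraries 1, number 4, correlated best with its own number. A replicate block gave 1 call over all libraries, 0 in the chow libraries alone (0 of the genes picked by the rule) and 45 in libraries 1 to 3 (40 shared with the 167).

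Tspo passed in libraries 1 to 3 (-1.93), without both chow libraries 4 and knockout MCD library 1 (-1.92) and with the index (-1.86). The fatty acid and triglyceride synthesis median was 0.19 without scaling factors. Of 1755 single-gene values 1594 kept their side, 141 gained a call, 9 lost one (LOC500124) and 11 turned: Lrat without scaling factors (-0.0505), and Cdkn1a without scaling factors (-0.0752), in libraries 1 to 3 (-1.07), without both libraries 4 (-1.07), without these and knockout MCD library 1 (-1.06), without 1 library (-0.929 without knockout library 4 to 0.552 without knockout library 1), with the block (-0.0156; -0.32 in chow libraries), with the index (-0.32; -0.96 in chow libraries) and with limma voom (-0.28). The causes were not tested. Small counts limit Tspo and Mpped1.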

Other observations

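Other gene groups gave few or no calls on chow. Of all 11162 genes tested 5374 had a fold above 0 over all libraries. Of 44 nuclear genes of oxidative phosphorylation 40 had a fold above 0, with a median of 0.25. Of these 44, 0 were called and 1 was higher at an unadjusted p under 0.05 (3.56% of all genes). With the message length index in the model the median was 0.05. Of 23 genes of mitochondrial quality, import and uncoupling 20 had a fold above 0 (median 0.24) and 0 were called. Of 66 cytosolic ribosomal protein genes 41 had a fold above 0 (median 0.11), and 0 were called. At an unadjusted p under 0.05, 2 were higher and 0 lower (3.56% and 6.76% of all genes). Of 30 complement and coagulation genes 0 were called, and in libraries 1 to 3, 10 were higher and 1 lower at an unadjusted p under 0.05 (10.5% and 12.6% of all genes), with a median of 0.17.

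Macrophage genes had a median of 0.07 over all libraries and 0.24 in libraries 1 to 3, where 6 of 17 were higher and 0 lower at an unadjusted p under 0.05 (10.5% and 12.6% of all genes), and 0 were called in either. The summed level of the 9 Kupffer cell markers was 480.2 to 716 CPM in wild-type and 601 to 866 CPM in knockout libraries 1 to 3, which overlapped. Endothelial genes had a median of -0.27 in both sets of libraries, and 1 of 22 fell in libraries 1 to 3 (1.22% of all genes fell). This was Gata4, a transcription factor of sinusoidal endothelium. It had 24.8, 29.8, 23.5 and 16.5 CPM in wild type against 15.0, 16.6, 15.1 and 7.9 CPM in the knockout. Wild-type library 4 lay within the knockout range. Gata4 fell by 0.75 ± 0.15 in libraries 1 to 3 (edgeR adjusted p = 0.0388). Its fold over all libraries was -0.79 ± 0.25 (edgeR adjusted p = 0.449). Immediate early genes, which respond quickly to handling and hormones, had medians of -0.33 and -0.45 with 0 called. In libraries 1 to 3, 8 of 20 were lower and 0 higher at an unadjusted p under 0.05 (12.6% and 10.5% of all genes).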
